A study of Homo sapiens and Mus musculus with 36 samples.

Results

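The insulin-like growth factor genes described here are IGF2, which encodes a growth factor ligand, IGF1R, which encodes its signalling receptor, and IGFBP1 to IGFBP7, which encode the secreted binding proteins. These 9 genes were chosen by symbol, and all 9 were listed among the 26457 symbols of the HuH-7 guide tables and, as their mouse counterparts, among the 22673 symbols of the mouse tables. In the separate tables of DMSO and EPZ-5676 libraries 7 of the 9 were among the 15899 symbols listed, and IGFBP1 and IGFBP5 were not. The 9 were chosen with earlier results of one comparison known: IGFBP2 and IGFBP3 were among the genes most raised by DOT1L knockout in HuH-7 cells given IFN. Values of that comparison are therefore given as a description, without a test.

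RNA-seq read counts per gene were made from 36 libraries of 4 cancer cell lines to examine how DOT1L, the methyltransferase of histone H3 lysine 79, bears on gene expression. The human line was HuH-7, from a hepatocellular carcinoma; the mouse lines were Hepa1-6 and Hep53.4, both labelled hepatocellular carcinoma, and LLC, labelled lung carcinoma. In each line, cells edited in DOT1L (Dot1l in mouse) with guide sg1 or guide sg2 were set against cells carrying the control guide sgNeg2, labelled WT, with 2 libraries per guide. HuH-7 had such a set of 6 libraries without IFN and another of 6 with IFN, the type, dose and duration of which are not stated in the labels. Unedited HuH-7 cells were also treated for 7 days with EPZ-5676 (pinometostat), a small-molecule inhibitor of DOT1L, and set against DMSO, the vehicle, with 3 libraries each. All cells grew in serum-containing medium, which itself carries growth factors. The labels do not say whether an edited line was a clone or a pool, nor whether replicates came from separate cultures, so the p-values reflect library-to-library spread, which may be technical.

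IGF2 and the related ligand IGF1 bind the receptor tyrosine kinase encoded by IGF1R, which signals through insulin receptor substrates to the PI3K and AKT kinases and to growth and survival. In the circulation and around cells most of the ligand is held by binding proteins, which can withhold it from the receptor or carry and release it, and which proteases such as PAPPA cut to free it. Liver is the main source of circulating IGF1 and of IGFBP1 and IGFBP2, and IGF2 is an imprinted gene that fetal liver and many liver tumours express.

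In the GENCODE v29 annotation of GRCh38, IGF2 lies at chr11:2129112-2158658 on the minus strand and IGF1R at chr15:98648539-98964530 on the plus strand. Among the binding protein genes, IGFBP1 at chr7:45888357-45893668 and IGFBP3 at chr7:45912245-45921874 are neighbours 18.6 kb apart, with their 3' ends facing each other. IGFBP2 at chr2:216632828-216664436 and IGFBP5 at chr2:216672105-216695525 form a like pair 7.7 kb apart. IGFBP4 lies at chr17:40443461-40457731, IGFBP6 at chr12:53097436-53102345 and IGFBP7 at chr4:57030773-57110385. Exons of IGF2 overlap those of INS-IGF2 on the same strand and IGF2-AS on the other, and exons of IGFBP7 overlap POLR2B and IGFBP7-AS1 on the other strand. Because strand use in the counting is not given in the sources used here, reads of IGF2 and of IGFBP7 cannot be told apart from those of their antisense partners, and likewise those of IGFBP5 and AC007563.2.

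The promoters of the genes called in the same direction by knockout and by the inhibitor in HuH-7 cells follow, as far as the RefSeq promoter table (GRCh38.p14) holds them, so that the letters upstream of these genes can be read beside their changes. Each is the 250 bases before the annotated start, 5' to 3' on the gene's own strand. Capitals mark a GC box, GGGCGG on either strand (CCGCCC when read on the gene's strand), or a TATA box, TATAAA on the gene's strand. IGFBP2 has 3 entries, of which the 2 whose start matches a GENCODE transcript are printed, and IGF2 is named only.
IGFBP2, first start, chr2:216632578-216632827: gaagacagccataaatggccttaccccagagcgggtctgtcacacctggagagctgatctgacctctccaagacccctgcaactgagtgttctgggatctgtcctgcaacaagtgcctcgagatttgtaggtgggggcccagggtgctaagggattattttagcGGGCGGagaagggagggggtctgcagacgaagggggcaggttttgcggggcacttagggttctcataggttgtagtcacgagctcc
IGFBP2, second start, chr2:216633170-216633419: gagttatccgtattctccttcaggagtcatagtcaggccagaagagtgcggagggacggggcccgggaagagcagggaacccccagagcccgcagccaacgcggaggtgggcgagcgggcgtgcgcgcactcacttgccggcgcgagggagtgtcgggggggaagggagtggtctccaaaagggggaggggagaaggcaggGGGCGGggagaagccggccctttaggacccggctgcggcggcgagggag
IGFBP3, chr7:45921273-45921522: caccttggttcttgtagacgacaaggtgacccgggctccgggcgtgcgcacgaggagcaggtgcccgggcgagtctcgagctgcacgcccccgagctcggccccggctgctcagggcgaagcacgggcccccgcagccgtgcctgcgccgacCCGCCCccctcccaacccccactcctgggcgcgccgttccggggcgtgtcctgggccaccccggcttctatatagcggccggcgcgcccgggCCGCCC
IGFBP4, chr17:40443200-40443449: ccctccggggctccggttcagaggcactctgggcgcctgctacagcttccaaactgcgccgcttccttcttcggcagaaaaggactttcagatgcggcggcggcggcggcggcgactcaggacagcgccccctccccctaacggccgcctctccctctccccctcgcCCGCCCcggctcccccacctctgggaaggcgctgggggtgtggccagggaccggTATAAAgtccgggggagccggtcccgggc
IGF1R, chr15:98648289-98648538: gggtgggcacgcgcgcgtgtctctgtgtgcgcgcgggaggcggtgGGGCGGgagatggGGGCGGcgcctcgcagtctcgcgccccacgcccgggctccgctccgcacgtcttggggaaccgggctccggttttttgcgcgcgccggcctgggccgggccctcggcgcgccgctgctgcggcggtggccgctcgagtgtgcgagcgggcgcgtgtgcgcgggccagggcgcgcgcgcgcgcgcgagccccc

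All 5 printed windows held a GC box, which 42.6% of the 35116 promoters in that table also hold in the same length, whether or not their start matches a transcript. The IGFBP2 entry not printed held 0 GC boxes and 4 CG dinucleotides. The IGFBP4 window alone held TATAAA, present on the gene's strand in 6.80% of all promoters. CG dinucleotides numbered 48 upstream of IGF1R, 32 upstream of IGFBP3, 24 upstream of IGFBP4, and 7 and 22 upstream of the IGFBP2 starts, against a median of 11 over all promoters. These matches describe letters and not binding.

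Library totals ran from 19580588 to 22649969 counts in the HuH-7 guide set without IFN and from 47594968 to 61227426 with IFN. The inhibitor set ran from 48912627 to 58628528 counts and the mouse lines from 42637155 to 59686358. DOT1L or Dot1l transcript was lower in every edited library than in each sgNeg2 library of its set, for example 32.1 to 40.4 CPM in edited and 73.1 and 75.4 CPM in sgNeg2 HuH-7 cells without IFN. CPM are read counts scaled for library size, with scaling factors by the trimmed mean of M-values (TMM) within each set of libraries. All 8 hepatocyte markers reached a mean of 1 CPM in HuH-7, 6 of 8 did in Hepa1-6 and 4 of 8 in Hep53.4, where Alb averaged 1.27 CPM and Apoa1, Ttr and Fgb were at 0 in sgNeg2 cells. In LLC none of the hepatocyte markers did, and of 6 lung epithelium markers Napsa alone did, at 2.21 CPM in edited and 1.09 CPM in sgNeg2 cells. Nkx2-1 had 0 counts in all 6 LLC libraries, and Sftpc, Sftpa1 and Scgb1a1 had 0 counts in LLC sgNeg2 cells. Over all genes, the HuH-7 sg2 replicates without IFN and the Hepa1-6 sg1 replicates stood farther apart than any other replicate pair, with a chi-square per degree of freedom of 24.7 and 62.6, against 2.81 to 8.64 for the rest (1 is counting noise). In such bulk libraries fewer cells expressing a gene and less RNA per cell cannot be told apart.

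Per kb of exon sequence, the scale on which genes can be set against each other, IGF1R and IGF2 were the most abundant of the 9 in sgNeg2 HuH-7 cells, at 12.7 and 5.94 CPM per kb. IGFBP4 followed at 2.89 CPM per kb, and IGFBP7 at 1.30 and IGFBP6 at 1.29 CPM per kb did not differ beyond their spread. IGFBP3, IGFBP2 and IGFBP1, at 0.0886, 0.0855 and 0.0647 CPM per kb, had overlapping ranges at the foot of the order. IGFBP5, at 0.0331 CPM per kb, overlapped IGFBP3 and IGFBP1 but lay below IGFBP2. In edited cells the order of means began with IGF1R at 6.45, IGFBP4 at 5.08 and IGF2 at 3.28 CPM per kb, and IGFBP3 and IGFBP2 stood at 0.774 and 0.768 CPM per kb. The order in control cells depended on the library set. In DMSO libraries IGF1R at 5.31 and IGFBP4 at 3.92 CPM per kb stood above IGF2 at 3.24 CPM per kb.

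**Figure D1:**
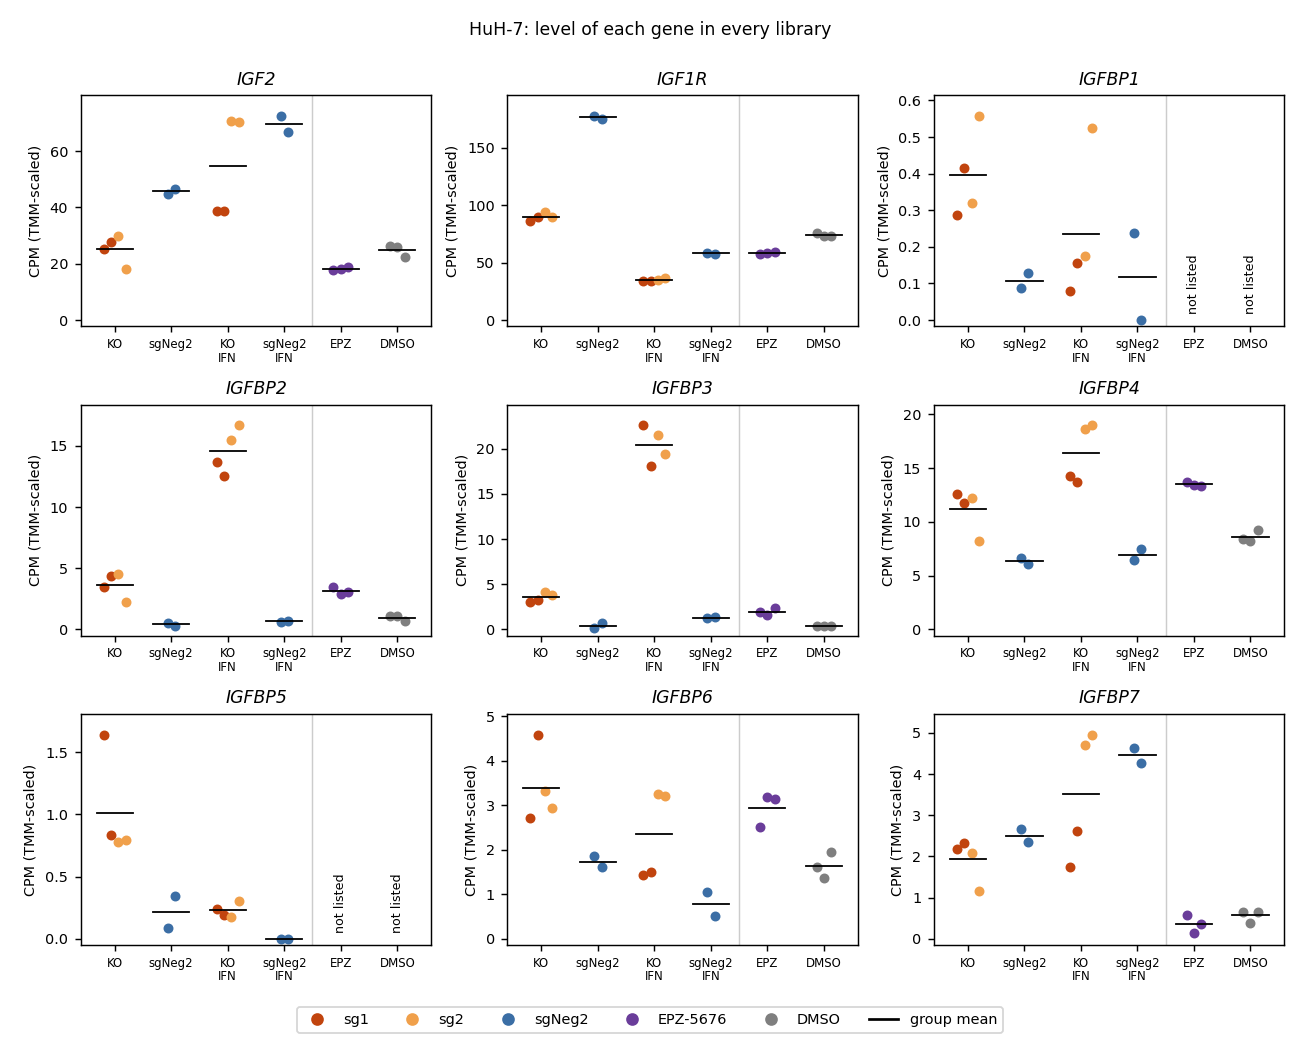
Level of each of the 9 genes in every HuH-7 library, in TMM-scaled CPM on a linear axis from 0, with points for libraries coloured by guide or agent and a bar for the group mean. IGFBP2 and IGFBP3 sit above 2 CPM in every edited library and below 1 CPM in both sgNeg2 libraries without IFN; the guide set and the EPZ-5676 and DMSO set were scaled separately.

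Without IFN, HuH-7 cells with DOT1L knockout had less ligand and receptor transcript than sgNeg2 cells and more transcript of several binding proteins. All 9 genes passed the filter on low counts, 4 rose and 2 fell, while 6.95% of all 16448 genes tested rose and 4.38% fell, 11.3% in all (edgeR quasi-likelihood test, Benjamini-Hochberg adjusted p below 0.05). The binding proteins IGFBP2, IGFBP3, IGFBP4 and IGFBP5 rose, and IGF2 and IGF1R fell. Of these, IGFBP5 entered the fit only through its edited libraries. The member counts and the shares of all genes are not like for like. Members were chosen knowing that IGFBP2 and IGFBP3 rose with knockout by the same guides under IFN, and those libraries share this fit. Without sg2 replicate 2, of the replicate pair that stood apart, only the call of IGF2 was lost among the 6. DMSO libraries, scaled separately, averaged 24.9 CPM for IGF2 and 74.0 CPM for IGF1R, and edited cells 25.2 and 89.9 CPM. IGFBP2, IGFBP3 and IGFBP4 averaged 0.953, 0.398 and 8.63 CPM in DMSO libraries and 3.66, 3.54 and 11.2 CPM in edited cells. The difference between these control sets was not tested.

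IGF1R had 86.5 and 89.5 CPM in sg1 cells and 94.0 and 89.8 CPM in sg2 cells, against 178 and 176 CPM in sgNeg2 cells. Every edited library was far below both control libraries, and the 2 guides gave close values. The log2 change was -0.97 ± 0.06 (SE; adjusted p = 9.35e-07, edgeR), with means of 89.9 ± 3.06 CPM (SD, n = 4) in edited and 177 ± 1.74 CPM (SD, n = 2) in sgNeg2 cells. INSR, which encodes the closely related insulin receptor, averaged 709.5 CPM in edited and 753 CPM in sgNeg2 cells and was not called (log2 change -0.09 ± 0.06, adjusted p = 0.42, edgeR). IGF2R, which encodes the receptor that clears IGF2, averaged 307 CPM in edited and 342 CPM in sgNeg2 cells (adjusted p = 0.0993, edgeR).

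IGF2 had 25.3 and 27.6 CPM in sg1 cells and 29.7 and 18.1 CPM in sg2 cells, against 44.7 and 46.7 CPM in sgNeg2 cells. All 4 edited libraries were below both control libraries. The sg2 libraries differed from each other more than the sg1 libraries did, and sg2 replicate 2 was the lower of the pair for IGFBP2, IGFBP4 and IGFBP7 as well. The log2 change of -0.86 ± 0.25 passed narrowly (adjusted p = 0.0422, edgeR), and the call was lost when either sgNeg2 library was left out (adjusted p = 0.194 and 0.176), without sg1 replicate 1 (0.0611) or sg2 replicate 2 (0.0829), and without the filter on low counts (0.0747). The overlapping IGF2-AS had 12 to 37 counts in these 6 libraries and was not called (log2 change -0.31 ± 0.40, adjusted p = 0.679, edgeR), and INS-IGF2 had 0 counts in all 12 guide libraries. IGF1, the other ligand, had 5 counts or fewer in each library without IFN.

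IGFBP2 had 3.44 and 4.38 CPM in sg1 cells and 4.55 and 2.28 CPM in sg2 cells, against 0.517 and 0.298 CPM in sgNeg2 cells. The lowest edited library was several times the higher control library. The log2 change was 3.16 ± 0.35 (adjusted p = 7.17e-05, edgeR), resting on 338 counts in the 4 edited and 19 counts in the 2 sgNeg2 libraries.

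IGFBP3, the main serum carrier of both ligands, had 3.03 and 3.21 CPM in sg1 cells and 4.10 and 3.81 CPM in sg2 cells, against 0.129 and 0.681 CPM in sgNeg2 cells. The groups were far apart, although the control libraries differed from each other. The log2 change was 3.11 ± 0.35 (adjusted p = 8.76e-05, edgeR), from 323 counts in edited and 19 counts in sgNeg2 libraries. Both IGFBP2 and IGFBP3 remained called with either guide alone and with each library left out in turn, although the IGFBP3 change was 2.37 without sgNeg2 replicate 1 and 4.69 without replicate 2.

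IGFBP4, whose product is the classic substrate of the protease PAPPA, had 12.5 and 11.7 CPM in sg1 cells and 12.3 and 8.19 CPM in sg2 cells, against 6.67 and 6.05 CPM in sgNeg2 cells. The log2 change was 0.81 ± 0.20 (adjusted p = 0.0171, edgeR). The call was lost without either sgNeg2 library (adjusted p = 0.114 and 0.183, edgeR), while the groups did not overlap.

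IGFBP5, whose product also binds extracellular matrix, was scarce, at 1.64 and 0.833 CPM in sg1 cells and 0.774 and 0.791 CPM in sg2 cells, against 0.0861 and 0.341 CPM in sgNeg2 cells. One sg1 library stood above the other edited libraries. Each edited library held at least 10 counts, whereas sgNeg2 libraries held 2 and 8 counts without IFN and 0 with IFN, too few to pass the filter alone. The gene thus entered the fit through the group where it was high and had to differ, so its log2 change of 2.23 ± 0.59 (adjusted p = 0.0293, edgeR), from 94 and 10 counts, is a description. The call was lost without either sgNeg2 library (0.299 and 0.0568), without either sg1 library (0.0782 and 0.0515) and with sg2 alone (0.111). Its log2 change was 1.56 without sgNeg2 replicate 1 and 3.46 without replicate 2.

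The other binding proteins did not pass. IGFBP6, whose product prefers IGF2 over IGF1, had 2.71 and 4.58 CPM in sg1 cells and 3.32 and 2.93 CPM in sg2 cells, against 1.85 and 1.62 CPM in sgNeg2 cells, a log2 change of 0.96 ± 0.41 (adjusted p = 0.158, edgeR). All edited libraries were above both control libraries, and the gene passed when only the 6 libraries without IFN were fitted (adjusted p = 0.0222, edgeR) and when the guides were separate groups (0.0237). IGFBP1, which insulin represses in liver, had 36 counts in the edited and 5 in the sgNeg2 libraries, a log2 change of 1.85 ± 1.06 (adjusted p = 0.30, edgeR) with an approximate 95% interval from -0.24 to 3.93. Its sgNeg2 libraries, at 2 and 3 counts without IFN and 0 and 10 with IFN, were too low to pass the filter alone. It too entered the fit through its edited libraries. IGFBP7, whose product binds these ligands weakly, had 1.16 to 2.33 CPM in edited and 2.34 and 2.67 CPM in sgNeg2 cells, a log2 change of -0.36 ± 0.40 (adjusted p = 0.617, edgeR). Marker sums moved in the same comparison. The 8 hepatocyte markers summed to 5274 to 6178 CPM in edited and 7131 to 7161 CPM in sgNeg2 cells. Fibroblast and stellate cell markers summed to 81.9 to 90.95 CPM in edited and 123.5 to 125 CPM in sgNeg2 cells, with 3 and 2 of 8 at a mean of 1 CPM. Endothelial markers went the other way, at 16 to 18.4 CPM in edited and 8.61 to 9.665 CPM in sgNeg2 cells, with 1 of 6 at a mean of 1 CPM. Their part in these changes was not tested.

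Inhibition of DOT1L with EPZ-5676 was measured in other libraries, and asks whether blocking the enzyme rather than editing the gene goes with the same changes. Of the 7 listed genes 4 rose and 2 fell, while 15.1% of the 15023 genes tested rose and 18.6% fell, 33.7% in all. IGFBP2, IGFBP3, IGFBP4 and IGFBP6 rose, and IGF2 and IGF1R fell. DOT1L transcript itself was 47.6 to 51.1 CPM with EPZ-5676 and 51.8 to 54.5 CPM with DMSO.

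IGFBP2 had 3.46, 2.93 and 3.04 CPM with EPZ-5676, against 1.09, 1.08 and 0.693 CPM with DMSO. The treated libraries were all well above the vehicle libraries, with a log2 change of 1.72 ± 0.22 (adjusted p = 9.81e-10, edgeR). IGFBP3 had 1.896, 1.62 and 2.34 CPM with EPZ-5676, against 0.381, 0.415 and 0.399 CPM with DMSO. Here too the groups were well apart, with a log2 change of 2.29 ± 0.29 (adjusted p = 1.16e-09, edgeR).

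IGFBP4 had 13.7, 13.4 and 13.3 CPM with EPZ-5676, against 8.39, 8.22 and 9.27 CPM with DMSO, which gave a log2 change of 0.64 ± 0.09 (adjusted p = 5.58e-09, edgeR). IGFBP6 had 2.52, 3.18 and 3.13 CPM with EPZ-5676, against 1.60, 1.37 and 1.96 CPM with DMSO, which gave a log2 change of 0.84 ± 0.20 (adjusted p = 0.000591, edgeR). Neither pair of groups overlapped. IGFBP7 was low, with 0.585, 0.135 and 0.369 CPM with EPZ-5676 and 0.648, 0.395 and 0.659 CPM with DMSO, overlapping groups and an uncalled log2 change of -0.65 ± 0.44 (adjusted p = 0.261, edgeR).

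IGF2 had 17.8, 18.05 and 18.7 CPM with EPZ-5676, against 26.4, 26.1 and 22.2 CPM with DMSO. The treated libraries lay close together and below all vehicle libraries, with a log2 change of -0.45 ± 0.06 (adjusted p = 2.58e-08, edgeR). IGF2-AS was not called (log2 change -0.06 ± 0.25, adjusted p = 0.882, edgeR). IGF1R had 57.6, 58.0 and 59.3 CPM with EPZ-5676, against 75.5, 73.2 and 73.2 CPM with DMSO, a smaller but precise change of -0.34 ± 0.03 (adjusted p = 1.31e-13, edgeR). The hepatocyte marker sum was 10610 to 10670 CPM with EPZ-5676 and 12150 to 12240 CPM with DMSO. Fibroblast and stellate cell markers summed to 93.0 to 97.8 CPM with EPZ-5676 and 102 to 106 CPM with DMSO. Leukocyte markers summed to 78.6 to 81.1 CPM with EPZ-5676 and 70.2 to 74.6 CPM with DMSO. The 1 endothelial marker listed had 8.15 to 9.97 CPM with EPZ-5676 and 4.44 to 6.41 CPM with DMSO. The part of these markers in the changes was not tested.

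Knockout and inhibitor comparisons share no library. Of the 7 genes tested in both, 5 were called in the same direction in both, namely IGFBP2, IGFBP3, IGFBP4, IGF2 and IGF1R, and 0 in opposite directions. Over all 14868 genes tested in both, 8.0% were called in the same direction in both and 34 genes in opposite directions. These shares are not like for like, since the members were chosen knowing that IGFBP2 and IGFBP3 rose with knockout under IFN. The knockout calls of IGF2 and IGFBP4 were also lost without either sgNeg2 library. The knockout changes of IGFBP2 and IGF1R (3.16 and -0.97) were larger than the inhibitor changes (1.72 and -0.34), but the sets were fitted apart and this difference was not tested.

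**Figure D2:**
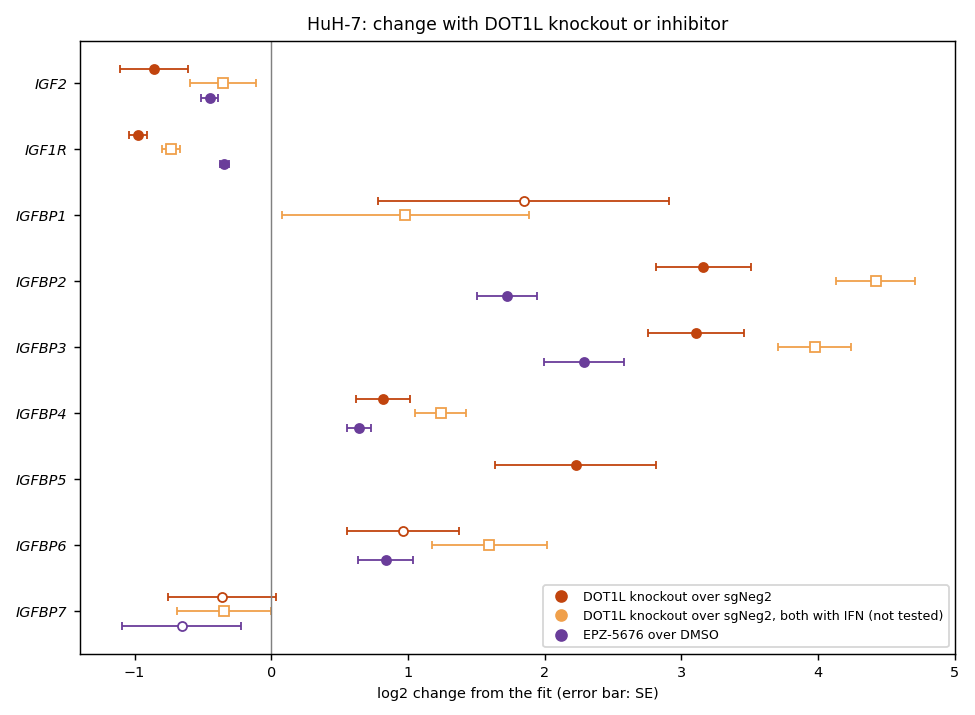
Fitted log2 change of each gene in HuH-7 cells (points, with SE as bars) for DOT1L knockout over sgNeg2 without IFN, the same with IFN, and EPZ-5676 over DMSO; filled points passed adjusted p below 0.05, open circles did not, and open squares were not tested. IGFBP2, IGFBP3 and IGFBP4 lie right of 0 and IGF2 and IGF1R left of 0 in all 3 comparisons; IGFBP5 with IFN is not drawn because sgNeg2 cells had 0 counts.

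In the presence of IFN, the comparison that chose these genes, 5 of the 9 were more than 2-fold higher in edited cells and 0 more than 2-fold lower, while 9.22% and 1.94% of all genes tested were, 11.2% in all. IGFBP2 had 13.7 and 12.5 CPM in sg1 cells and 15.5 and 16.7 CPM in sg2 cells, against 0.638 and 0.713 CPM in sgNeg2 cells, all with IFN. IGFBP3 had 22.6 and 18.1 CPM in sg1 cells and 21.5 and 19.5 CPM in sg2 cells, against 1.23 and 1.3604 CPM in sgNeg2 cells. The guides gave overlapping ranges for IGFBP3, while IGFBP2 was 1.23 times as high with sg2 as with sg1. Per kb, IGFBP3 at 4.47 and IGFBP2 at 3.06 CPM then stood above IGF1R at 2.50 CPM in edited cells, whereas in sgNeg2 cells with IFN they stood at 0.283 and 0.142 CPM per kb, below IGF1R at 4.16 CPM per kb.

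IGFBP4 had 14.2 and 13.7 CPM in sg1 cells and 18.6 and 18.98 CPM in sg2 cells with IFN, against 6.43 and 7.45 CPM in sgNeg2 cells with IFN, a log2 change of 1.24 ± 0.19. IGFBP5 had 46 counts over the 4 edited libraries and 0 counts in both sgNeg2 libraries, at least 7.61-fold higher when the control group is set at a floor of 3 counts over its 2 libraries. IGF1R had 34.0 and 34.0 CPM in sg1 cells and 35.1 and 36.5 CPM in sg2 cells, against 58.3 and 57.8 CPM in sgNeg2 cells, a log2 change of -0.73 ± 0.06. The direction of each was the one seen without IFN.

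With IFN the sg1 and sg2 ranges of some of the 9 genes were apart, which 2 libraries against 2 can also give by chance. The share over all genes was not computed. The mean with sg2 was 1.05 times that with sg1 for IGF1R, 1.34 times for IGFBP4, 1.83 times for IGF2 and 2.22 times for IGFBP6 and IGFBP7, all with IFN. IGF2 had 38.7 and 38.6 CPM in sg1 cells but 70.6 and 70.5 CPM in sg2 cells, against 72.6 and 66.9 CPM in sgNeg2 cells. Replicates of each guide were almost equal, sg1 lay below the controls and sg2 lay among them, so the pooled log2 change of -0.35 ± 0.24 describes neither guide (-0.85 with sg1 alone and 0.02 with sg2 alone). IGFBP7 had 1.74 and 2.62 CPM in sg1 cells and 4.71 and 4.96 CPM in sg2 cells, against 4.63 and 4.28 CPM in sgNeg2 cells. IGFBP6 had 1.42 and 1.496 CPM in sg1 cells and 3.26 and 3.21 CPM in sg2 cells, against 1.04 and 0.518 CPM in sgNeg2 cells. DOT1L transcript also differed between the guides with IFN, at 42.5 and 46.5 CPM in sg1 cells and 66.8 and 66.7 CPM in sg2 cells, against 108 and 109 CPM in sgNeg2 cells, and its part in these differences was not tested. IGFBP1 had 46 counts in edited and 10 counts in sgNeg2 libraries, in overlapping groups.

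IFN in control cells was compared through the sgNeg2 libraries. There 1 of the 9 genes rose and 2 fell, while 33.0% of all 16448 genes rose and 34.7% fell (67.8% either way), so the members' share was below that of all genes. IGF1R had 58.3 and 57.8 CPM with IFN, against 178 and 176 CPM without, a log2 change of -1.61 ± 0.08 (adjusted p = 1.71e-09, edgeR). With the DMSO libraries as the control without IFN that change was -0.38. IGFBP3 had 1.23 and 1.3604 CPM with IFN, against 0.129 and 0.681 CPM without, a log2 change of 1.66 ± 0.40 (adjusted p = 0.0025, edgeR), which was 0.93 without sgNeg2 replicate 1 and 3.24 without replicate 2. IGFBP5 fell to 0 counts with IFN, against 10 counts in the 2 libraries without (adjusted p = 0.0023, edgeR), at least 7.09-fold lower at a floor of 3 counts over the group. That bound was 2.86-fold without sgNeg2 replicate 2, the library with 8 of the 10 counts, and 11.3-fold without replicate 1. Neither sgNeg2 group could pass the filter alone for IGFBP5, which entered the fit through edited libraries, so its fall is a description. The sgNeg2 libraries with IFN also belong to the comparison whose results were known when the genes were chosen. The libraries with IFN hold more than 2-fold more counts, and library content is known to differ between the sets with and without IFN. Without IFN, IGF1R averaged 177 CPM in sgNeg2 and 74.0 CPM in DMSO libraries, which were scaled separately. IFN, depth, library content and any other difference between these library sets cannot be told apart.

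Values of the remaining genes in that comparison did not pass in the 12-library fit. IGF2 had 72.6 and 66.9 CPM with IFN, against 44.7 and 46.7 CPM without, a log2 change of 0.61 ± 0.29 (adjusted p = 0.0769, edgeR) that passed when only the 4 sgNeg2 libraries were fitted (1.67e-09). IGFBP7 had 4.63 and 4.28 CPM with IFN, against 2.67 and 2.34 CPM without (adjusted p = 0.101, edgeR), and it too passed in the fit of 4 libraries (0.0015). IGFBP6 had 1.04 and 0.518 CPM with IFN, against 1.85 and 1.62 CPM without, and lay at the threshold (adjusted p = 0.050, edgeR), passing with RLE size factors (0.043) and with DESeq2 (0.0214). IGFBP2, IGFBP4 and IGFBP1 had log2 changes of 0.73 ± 0.43, 0.13 ± 0.22 and 0.10 ± 1.30. With the DMSO libraries as the control without IFN, IGF2 (log2 change 1.46, adjusted p = 2.46e-05, edgeR), IGFBP7 (2.93, 1.15e-05) and IGFBP6 (-1.11, 0.0189) were called. IGFBP2 and IGFBP4 then changed sign, to -0.51 and -0.34, and were not called.

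The mouse lines differed widely in which of these genes they expressed. Igfbp1 averaged 1378 CPM in Hepa1-6 and 243 CPM in Hep53.4 sgNeg2 cells and had 0 counts in all 6 LLC libraries. Igfbp3 averaged 325 CPM in Hepa1-6 and 236 CPM in Hep53.4 sgNeg2 cells and also had 0 counts in LLC, which allows a level of up to 0.00911 CPM over the 6 libraries (3 counts; counting error only). Igfbp1 and Igfbp3 were thus both present in the lines labelled hepatocellular carcinoma and both without a count in the lung carcinoma line. Igf2 averaged 2.80 CPM in Hepa1-6, 0.0794 CPM in Hep53.4 and 0.0290 CPM in LLC sgNeg2 cells, the Hepa1-6 level standing apart.

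Igf1r showed another order, with 131 CPM in Hep53.4, 58.2 CPM in LLC and 0.174 CPM in Hepa1-6 sgNeg2 cells. Igfbp7 had the same order, with 70.4 CPM in Hep53.4, 21.7 CPM in LLC and 0.349 CPM in Hepa1-6. Igfbp4 averaged 4345 CPM in Hep53.4, 1346 CPM in Hepa1-6 and 828 CPM in LLC. Igfbp6 averaged 99.5 CPM in Hepa1-6, 49.1 CPM in LLC and 7.42 CPM in Hep53.4. Igfbp5 averaged 2.61 CPM in LLC, 0.405 CPM in Hep53.4 and 0.139 CPM in Hepa1-6. Igfbp2 was near 0 throughout, with 2 counts over the 6 Hepa1-6 libraries, 8 counts over the 6 Hep53.4 libraries, all in sgNeg2 cells, and 0 in LLC. The order of lines was the same for each gene when all 18 mouse libraries were scaled together.

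**Figure D3:**
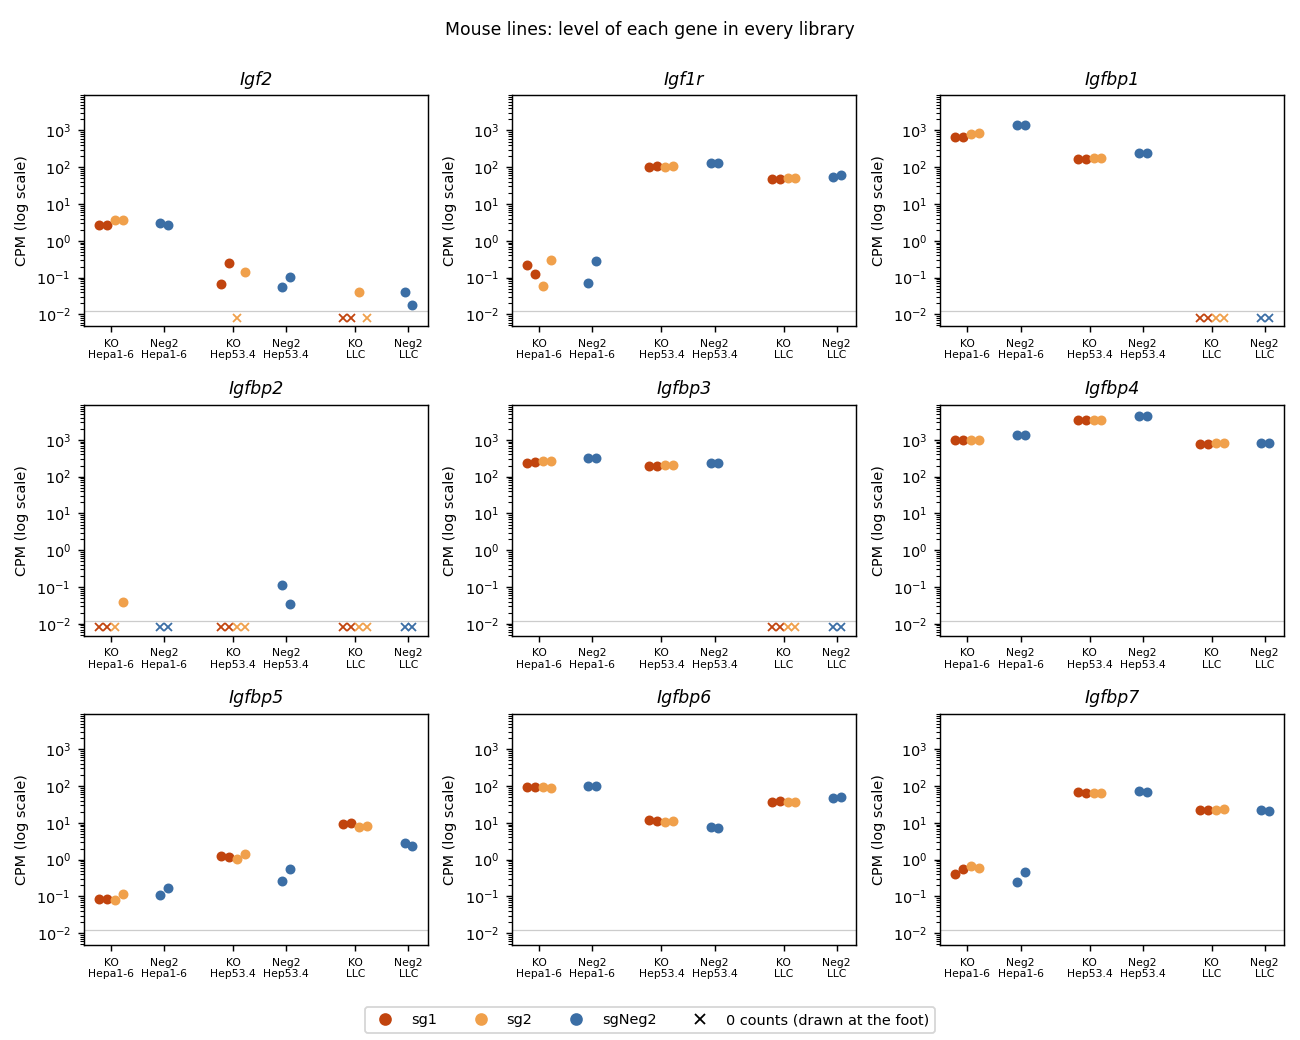
Level of each gene in every mouse library on a log axis of TMM-scaled CPM, with edited (KO) libraries left of sgNeg2 (Neg2) libraries within each line and crosses at the foot for 0 counts. Igfbp1 and Igfbp3 are at 0 in all LLC libraries, and Igf1r and Igfbp7 are below 1 CPM in all Hepa1-6 libraries; each line was scaled separately.

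In Hepa1-6, transcripts of 3 binding proteins, Igfbp1, Igfbp3 and Igfbp4, fell with Dot1l knockout. Of the 7 genes that passed the filter 0 rose and 3 fell, while 14.5% of the 12493 genes tested rose and 18.3% fell, 32.8% in all. Igfbp1 had 648 and 652 CPM in sg1 cells and 823 and 829 CPM in sg2 cells, against 1369.6 and 1386 CPM in sgNeg2 cells. Replicates agreed closely, and both guides were far below the controls, with sg1 lower than sg2. The log2 change was -0.90 ± 0.14 (adjusted p = 0.0116, edgeR), and the call was lost without either sgNeg2 library (0.0783 and 0.0708).

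Igfbp3 had 238 and 243 CPM in sg1 cells and 258 and 263 CPM in sg2 cells, against 325 and 325 CPM in Hepa1-6 sgNeg2 cells, a log2 change of -0.38 ± 0.04 (adjusted p = 1.3e-07, edgeR). Igfbp4 had 995 and 980.1 CPM in sg1 cells and 1012 and 1017 CPM in sg2 cells, against 1321 and 1371 CPM in sgNeg2 cells, a log2 change of -0.43 ± 0.03 (adjusted p = 2.07e-09, edgeR). Neither gene's groups overlapped. The hepatocyte marker sum was 20310 to 20930 CPM in edited and 28990 to 29160 CPM in sgNeg2 Hepa1-6 cells. Fibroblast and stellate cell markers summed to 348 to 365 CPM in edited and 425 to 443 CPM in sgNeg2 cells. Leukocyte markers summed to 85.2 to 96.9 CPM in edited and 98.1 to 103 CPM in sgNeg2 cells. Endothelial markers summed to 3.31 to 3.93 CPM in edited and 2.36 to 2.48 CPM in sgNeg2 cells. Lung epithelium markers summed to 0.608 to 1.71 CPM in edited and 0.468 to 0.521 CPM in sgNeg2 cells. The part of these markers in the falls was not tested. All 3 falls remained called without either sg1 library. Igf2 (2.66 to 3.80 CPM in edited and 2.64 and 2.97 CPM in sgNeg2 cells), Igf1r and Igfbp7 had overlapping groups and were not called, although Igfbp7 passed in the fit of all 18 mouse libraries (log2 change 0.72, adjusted p = 0.0364, edgeR). Igfbp6 was not called either (log2 change -0.07 ± 0.04, adjusted p = 0.209, edgeR).

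In Hep53.4 all 7 genes that passed the filter were called, 2 rising and 5 falling, while 19.4% of the 12227 genes tested rose and 19.7% fell, 39.2% in all. Igfbp1 had 169 and 171 CPM in sg1 cells and 181 and 176 CPM in sg2 cells, against 241 and 244 CPM in sgNeg2 cells, a log2 change of -0.48 ± 0.03 (adjusted p = 1.22e-13, edgeR). Igfbp3 had 200.4 and 199 CPM in sg1 cells and 209.5 and 211 CPM in sg2 cells, against 239 and 233 CPM in sgNeg2 cells, a log2 change of -0.21 ± 0.03 (adjusted p = 2.32e-06, edgeR). Igfbp4 fell by 0.34 ± 0.02 on the log2 scale, to a mean of 3443 ± 75.4 CPM (SD, n = 4) in edited cells, against 4345 ± 35.7 CPM (SD, n = 2) in sgNeg2 cells. These 3 falls were small, and each was larger than the spread between libraries.

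Igf1r had 101 and 107 CPM in sg1 cells and 101 and 106 CPM in sg2 cells, against 130 and 131 CPM in Hep53.4 sgNeg2 cells, a log2 change of -0.33 ± 0.03 (adjusted p = 5.85e-09, edgeR). Igfbp5 had 1.29 and 1.16 CPM in sg1 cells and 1.04 and 1.42 CPM in sg2 cells, against 0.262 and 0.547 CPM in sgNeg2 cells, a log2 change of 1.58 ± 0.36 (adjusted p = 0.000796, edgeR) that was 2.22 without sgNeg2 replicate 2. Igfbp6 had 11.7 and 11.2 CPM in sg1 cells and 10.6 and 11.4 CPM in sg2 cells, against 7.47 and 7.37 CPM in sgNeg2 cells, a log2 change of 0.60 ± 0.10 (adjusted p = 9.98e-06, edgeR). Igfbp7 fell by 0.11 ± 0.04 (adjusted p = 0.0286, edgeR), a call lost without either sgNeg2 library (0.276 and 0.0586), without either sg2 library (0.0547 and 0.0537), with sg1 alone (0.0933) and in the fit of all 18 mouse libraries (0.182). Igfbp2 and Igf2 did not pass the filter. Marker sums moved in the same comparison. Endothelial markers, 2 of 6 at a mean of 1 CPM, summed to 27.5 to 31.5 CPM in edited and 47.6 to 48.6 CPM in sgNeg2 cells, and Emcn had 0 counts in both. Hepatocyte markers summed to 241 to 253 CPM in edited and 272 to 278 CPM in sgNeg2 cells, and fibroblast and stellate cell markers to 9.57 to 10.7 CPM and 13.8 to 14.3 CPM. Lung epithelium markers, 1 of 6 at a mean of 1 CPM, summed to 41.3 to 50.3 CPM in edited and 37.9 to 39.2 CPM in sgNeg2 cells. Their part in the changes in Hep53.4 was not tested.

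In LLC 5 genes passed the filter, of which 1 rose and 2 fell, while 16.0% of the 12225 genes tested rose and 17.5% fell, 33.5% in all. Igfbp5 had 9.52 and 9.75 CPM in sg1 cells and 7.66 and 8.04 CPM in sg2 cells, against 2.81 and 2.41 CPM in sgNeg2 cells. The edited libraries were all well above the controls, with a log2 change of 1.75 ± 0.14 (adjusted p = 1.98e-08, edgeR). Igfbp6 had 37.7 and 39.3 CPM in sg1 cells and 37.8 and 37.9 CPM in sg2 cells, against 48.5 and 49.7 CPM in sgNeg2 cells, a log2 change of -0.36 ± 0.05 (adjusted p = 1.3e-05, edgeR).

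Igf1r had 48.4 and 48.6 CPM in sg1 cells and 49.5 and 52.0 CPM in sg2 cells, against 55.7 and 60.7 CPM in LLC sgNeg2 cells, a log2 change of -0.23 ± 0.05 (adjusted p = 0.00146, edgeR). That call was lost without sgNeg2 replicate 2 (0.0695). Igfbp4 was not called (log2 change -0.07 ± 0.04, adjusted p = 0.20, edgeR) but passed when the guides were separate groups (0.0164) and with sg1 alone (0.0026). Igfbp7 was not called (log2 change 0.09 ± 0.07, adjusted p = 0.318, edgeR). Fibroblast and stellate cell markers, with 4 of 8 in edited and 3 of 8 in sgNeg2 cells at a mean of 1 CPM, summed to 1542 to 1574 CPM in edited and 1109 to 1131 CPM in sgNeg2 LLC cells. Lung epithelium markers summed to 1.89 to 2.66 CPM in edited and 1.12 to 1.198 CPM in sgNeg2 cells. Leukocyte markers summed to 13.7 to 15.7 CPM in edited and 16.8 to 17.1 CPM in sgNeg2 cells. Endothelial markers summed to 2.99 to 3.29 CPM in edited and 2.57 to 2.97 CPM in sgNeg2 cells. Their part in the changes in LLC was not tested.

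**Figure D4:**
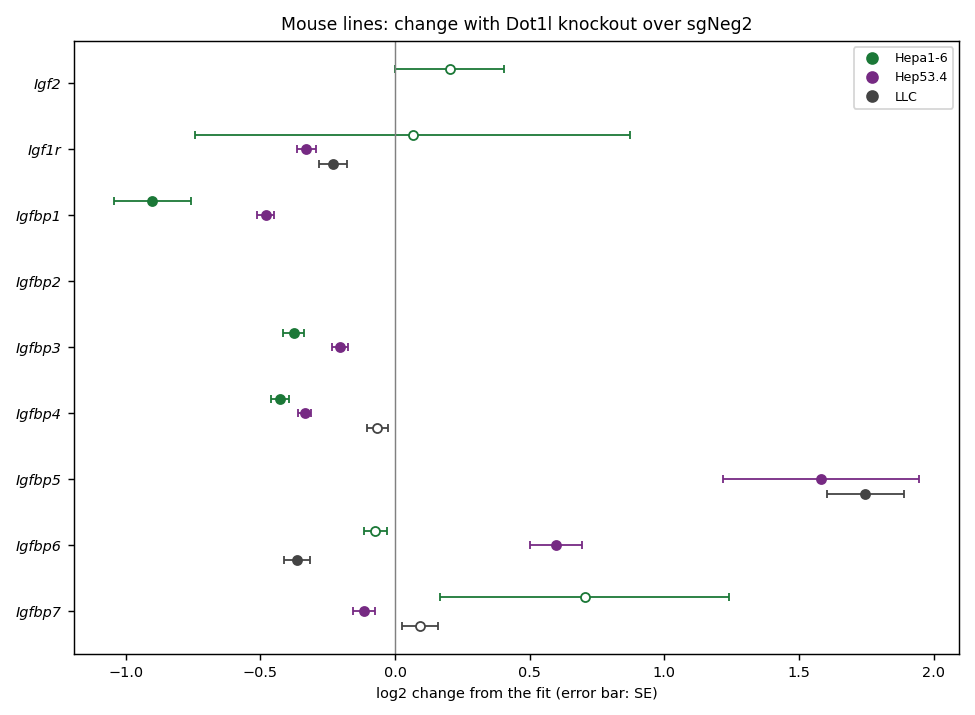
Fitted log2 change of each gene with Dot1l knockout over sgNeg2 in the 3 mouse lines (points, with SE as bars); filled points passed adjusted p below 0.05 and open points did not, and genes below the filter on low counts are not drawn. Igfbp5 lies far right in Hep53.4 and LLC, and Igfbp6 lies right of 0 in Hep53.4 and left of 0 in LLC.

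Whether the knockout acted differently on a gene in different lines was tested as a difference of the log2 changes in one fit of all 18 mouse libraries. Between Hepa1-6 and Hep53.4, 8 genes could be tested and 1 difference was positive and 3 negative, while 10.2% and 14.5% of the 14195 genes in the fit were, 24.7% in all. The shares given for differences between lines count every gene in the fit, also any at 0 in a whole line, which was not tested. Igfbp6 differed by -0.68 ± 0.08 (adjusted p = 9.16e-08, edgeR) and Igfbp3 by -0.18 ± 0.06 (adjusted p = 0.0185, edgeR). Igfbp5 had 4 to 6 counts in each edited and 6 and 8 counts in the sgNeg2 Hepa1-6 libraries, did not pass the filter in that line and entered this fit only through Hep53.4 and LLC. Its difference of -2.14 ± 0.66 (adjusted p = 0.0143, edgeR) therefore rests on 18 and 14 counts on the Hepa1-6 side. Igfbp7 differed by 0.84 ± 0.27 (adjusted p = 0.0211, edgeR), with 0.395 to 0.690 CPM in edited and 0.252 and 0.447 CPM in sgNeg2 Hepa1-6 cells. The Igfbp6 call held with each library left out. That of Igfbp3 was lost without either Hepa1-6 sgNeg2 library (0.0597 and 0.0501) or Hep53.4 sgNeg2 replicate 2 (0.0904). That of Igfbp5 was lost without Hepa1-6 sgNeg2 replicate 2 (0.148) or Hep53.4 sgNeg2 replicate 1 (0.0619) and with sg2 alone (0.0653), and its difference was -2.79 without Hep53.4 sgNeg2 replicate 2. That of Igfbp7 was lost without Hepa1-6 sgNeg2 replicate 1 (0.386) or sg2 replicate 1 (0.0617). For Igfbp1 the difference of -0.43 ± 0.16 was not called (adjusted p = 0.0811, edgeR) but passed with the guides as separate groups (1.45e-12) and with DESeq2 (0.0216).

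Against LLC, Hepa1-6 differed for Igfbp4 by -0.39 ± 0.05 (adjusted p = 2.16e-07, edgeR), and for Igfbp6 by 0.26 ± 0.07 (adjusted p = 0.00489, edgeR), while 9.28% of genes in the fit differed upward and 15.3% downward, 24.6% in all. Igfbp5, below the filter in Hepa1-6, differed by -2.33 ± 0.63 (adjusted p = 0.00544, edgeR), and that call was lost without Hepa1-6 sgNeg2 replicate 2 (0.0981) and with sg2 alone (0.0501). Hep53.4 differed from LLC for Igfbp6 by 0.94 ± 0.08 (adjusted p = 1.84e-10, edgeR) and for Igfbp4 by -0.29 ± 0.05 (adjusted p = 1.97e-05, edgeR), against 13.4% upward and 15.8% downward of genes in the fit, 29.2% in all. Igfbp6 thus rose in Hep53.4 and fell in LLC. The rise of Igfbp5 was not shown to differ between Hep53.4 and LLC (difference -0.19, approximate 95% interval -0.90 to 0.52, adjusted p = 0.788, edgeR). Igfbp1 and Igfbp3 could not be tested against LLC, where they had 0 counts.

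Across species the directions of the same-named genes can only be set side by side, since human and mouse libraries were not fitted together. IGFBP3 and IGFBP4 rose with knockout in HuH-7, whereas Igfbp3 and Igfbp4 fell in Hepa1-6 and Hep53.4. IGFBP5 was higher in edited HuH-7 libraries, where it was scarce, and Igfbp5 rose in Hep53.4 and LLC. IGF1R fell in HuH-7, and Igf1r in Hep53.4 and LLC.

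Beside these genes, 36 others of the same axis were listed, covering insulin and its receptor, adaptors, PI3K and AKT, proteases and regulators of IGF2. In HuH-7 knockout cells without IFN, 1 of the 27 tested rose and 4 fell, while 6.95% of all genes tested rose and 4.38% fell, 11.3% in all. Their median log2 change was -0.16, against 0.00 over all genes. PAPPA, which encodes the protease that cuts IGFBP4, had a log2 change of 2.86 ± 0.80 (adjusted p = 0.035, edgeR), at 1.26 CPM in edited and 0.171 CPM in sgNeg2 cells, with 11 to 42 counts in each edited and 4 in each sgNeg2 library, so it too passed the filter through its edited libraries. STC2, whose product inhibits PAPPA, averaged 50.3 CPM in edited and 72.6 CPM in sgNeg2 cells, a log2 change of -0.53 ± 0.07 (adjusted p = 0.000446, edgeR). HTRA1, another protease that cuts binding proteins, averaged 27.8 CPM in edited and 45.2 CPM in sgNeg2 cells (adjusted p = 0.00246, edgeR). GHR, the growth hormone receptor, fell by 0.50 ± 0.15 and FOXO1, a transcription factor held in check by AKT, by 0.42 ± 0.12 on the log2 scale.

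With EPZ-5676, 2 of 26 tested rose and 10 fell, while 15.1% of all genes tested rose and 18.6% fell, 33.7% in all. Their median log2 change was -0.09, against 0.01 over all genes. STC2 averaged 71.9 CPM with EPZ-5676 and 86.0 CPM with DMSO, giving a log2 change of -0.26 ± 0.03 (adjusted p = 5.05e-11, edgeR). IGF2R fell by 0.29 ± 0.02, and IGF2BP1 and IGF2BP3, whose products bind IGF2 messenger RNA, fell by 0.19 ± 0.01 and 0.20 ± 0.03. IRS2, an adaptor of both receptors, averaged 0.776 CPM with EPZ-5676 and 0.329 CPM with DMSO (log2 change 1.25 ± 0.40, adjusted p = 0.0105, edgeR). HTRA1 was 0.16 ± 0.05 higher with the inhibitor (adjusted p = 0.00812, edgeR), where in knockout cells it fell. PAPPA, higher in knockout cells, averaged 0.166 CPM with EPZ-5676 and 0.220 CPM with DMSO and was not called (log2 change -0.43 ± 0.61, adjusted p = 0.637, edgeR).

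Between sgNeg2 libraries with and without IFN, which differ in depth and library content too, 5 of the 27 tested rose and 18 fell, while 33.0% of all genes rose and 34.7% fell, 67.8% in all. Their median log2 change was -0.58, against -0.06 over all genes. INSR averaged 157 CPM with IFN and 753 CPM without, a log2 change of -2.26 ± 0.08 (adjusted p = 5.73e-11, edgeR). With the DMSO libraries as the control without IFN the INSR change was -0.56 ± 0.06 (adjusted p = 1.07e-07, edgeR). GHR averaged 2.93 CPM with IFN and 16.4 CPM without (log2 change -2.49 ± 0.18, and -1.86 with DMSO as control). STC2 averaged 220.1 CPM with IFN and 72.6 CPM without (log2 change 1.60 ± 0.09, and 1.33 with DMSO as control). IRS2 and STC1, both below 1 CPM, had log2 changes of -2.88 ± 0.64 and -2.65 ± 1.09, which were -1.39 and -1.38 with DMSO as control, where STC1 was not called (adjusted p = 0.281, edgeR). At 0.126 and 0.0432 CPM in sgNeg2 cells with IFN, both were too low there to pass the filter alone. They entered the fit through groups where they were higher, so their changes, counted among the 18 that fell, are a description.

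In Hepa1-6 knockout cells 3 of 26 axis genes rose and 10 fell, while 14.5% of all genes tested rose and 18.3% fell, 32.8% in all. Their median log2 change was -0.11, against 0.01 over all genes. Irs2 averaged 50.5 CPM in edited and 80.4 CPM in sgNeg2 cells (log2 change -0.67 ± 0.05, adjusted p = 7.47e-10, edgeR), Insr averaged 93.6 CPM in edited and 118 CPM in sgNeg2 cells (-0.33 ± 0.04), and Htra1 rose by 0.48 ± 0.10. In Hep53.4, 10 of 26 rose and 5 fell, while 19.4% of all genes tested rose and 19.7% fell, 39.2% in all, and the median was 0.01, against 0.00 over all genes. There Htra1 and Igf2r rose by 0.96 ± 0.28 and 0.65 ± 0.11, Insr fell by 0.26 ± 0.03 and Hmga2, which encodes a chromatin protein that favours IGF2 expression, fell by 0.30 ± 0.03. In LLC, 7 of 24 rose and 7 fell, while 16.0% of all genes tested rose and 17.5% fell, 33.5% in all, and the median was 0.04, against 0.01 over all genes. Igf2bp1 averaged 2.10 CPM in edited and 0.545 CPM in sgNeg2 LLC cells (log2 change 1.93 ± 0.27, adjusted p = 1.71e-05, edgeR), and Htra1 averaged 95.5 CPM in edited and 143 CPM in sgNeg2 cells (-0.58 ± 0.04, adjusted p = 7.82e-09, edgeR). Grb14, an inhibitory adaptor, rose by 1.01 ± 0.20. Pappa2 was at 0.263 CPM in edited and 0.0580 CPM in sgNeg2 LLC cells (adjusted p = 0.0289, edgeR). Its sgNeg2 level was too low to pass the filter alone, so it entered the fit through its edited libraries and its change is a description.

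As a description of likeness, each gene with a mean of at least 1 CPM was set against the 13340 genes of that level over the 12 HuH-7 guide libraries, after subtracting the mean of each IFN setting. These points share libraries, scaling and the knockout contrast itself. IGFBP3 was most like CAV1 (Pearson r = 0.994), PARM1 and LITAF (both 0.989), and IGFBP2 was most like PALM3 (0.993), TIMP2 (0.990) and VIM (0.989). IGF1R was most like SLC7A1 (0.996), IGFBP4 most like TNFAIP2 (0.995), IGF2 most like HSD17B10 (0.994), IGFBP7 most like MRPS12 (0.987) and IGFBP6 most like NRARP (0.969). Over the 18 mouse libraries, after subtracting each line's mean, Igfbp1 and Igfbp3 were each other's closest of 11558 genes (r = 0.991), although both had 0 counts in 6 of those libraries. Igfbp4 was most like Zmynd8 (0.972), Igfbp5 most like Tgfbi (0.954), Igfbp6 most like Lamc1 (0.950), Igf1r most like Rps6ka2 (0.930), Igfbp7 most like Nkain1 (0.864) and Igf2 most like Tmem38b (0.831).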

How the data were processed

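The deposited files hold 1 whole-number count per gene symbol for each of 36 libraries. Per the submitters' processing notes, tools named are Trim Galore, HISAT2 2.2.1, SAMtools 1.9 and DESeq2 1.36.0, with builds hg38 and mm10; for the counter, annotation and strand setting, the sources used here give nothing. Per the labels, RNA came from RNeasy columns and VAHTS Universal V6 libraries. The DMSO and EPZ-5676 files as deposited list no count below 1. Lines without a symbol (1721 in Hepa1-6 and 1 in Hep53.4 sgNeg2 files) were left out.

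From the counts, TMM-scaled CPM and log2 changes were computed with edgeR 4.0.16 in R 4.3.3 (filterByExpr, minimum count 10 and minimum total 15; robust quasi-likelihood F test; Benjamini-Hochberg adjustment over all genes tested, threshold 0.05; SE as the log2 change over the root of F). The 12 HuH-7 guide libraries shared 1 fit, the 6 DMSO and EPZ-5676 libraries and each mouse line were fitted apart, and differences between lines came from 1 fit of 18 libraries, in which a gene at 0 in a whole line was not tested. Guides were pooled. Promoters were read from RefSeq and positions from GENCODE.

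Members and lists were chosen with earlier results of these data known. Every one of the 9 genes is reported; of the other axis genes, those called in a comparison could be named, at most the 6 largest changes per comparison, and for likeness the closest 3 genes per member. INSR, IGF2R, IGF1, IGF2-AS, INS-IGF2 and, with EPZ-5676, HTRA1 and PAPPA are also named, after their values were seen. Alternatives were RLE size factors, DESeq2 1.42.0, no filter, each library left out, a replicate block, guides as groups or singly, and smaller or larger fits. The scripts were tested on simulated counts. Precision is limited by 2 sgNeg2 libraries per setting; limits from 3 counts cover counting error only.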

Additional observations from a re-analysis of the deposited data

Results flagged for a closer look

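Of 41 sets of 4 edited libraries (1 gene in 1 line and setting), 4 held a library far from the other 3 by Dixon's ratio; chance alone flags about 1 set in 20. IGFBP5 in HuH-7 sg1 replicate 1 without IFN stood at 1.64 CPM, above 0.774 to 0.833 CPM in the other edited libraries. Igfbp6 in LLC sg1 replicate 2 stood at 39.3 CPM, above 37.7 to 37.9 CPM in the others. Igf2 in LLC sg2 replicate 1 (0.0401 CPM) and Igfbp2 in Hepa1-6 sg2 replicate 2 (0.0380 CPM) were the only edited libraries of their sets with any count.

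In 9 tests the log2 change with Dot1l knockout differed between mouse lines (edgeR, adjusted p below 0.05). Hepa1-6 minus Hep53.4 gave -0.18 for Igfbp3, -2.14 for Igfbp5, -0.68 for Igfbp6 and 0.84 for Igfbp7. Hepa1-6 minus LLC gave -0.39 for Igfbp4, -2.33 for Igfbp5 and 0.26 for Igfbp6. Igfbp5 did not pass the filter within Hepa1-6. Hep53.4 minus LLC gave -0.29 for Igfbp4 and 0.94 for Igfbp6.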

How the results depend on the processing

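Counts of the 9 genes called stayed within 1.5 times the reported count in all comparisons and alternatives run, with these exceptions. For knockout in HuH-7 without IFN the count was 6 and lay between 3 and 6 with each library left out, 3 without sgNeg2 replicate 1 and 3 without sgNeg2 replicate 2. For the difference between Hepa1-6 and Hep53.4 the count was 4 and fell to 2 without either Hepa1-6 sgNeg2 library. For IFN in sgNeg2 cells the count was 3, and it was 5 in the fit of only the 4 sgNeg2 libraries and 5 with DMSO libraries as control. The replicate block changed 1 call, that of IGF2 with knockout in HuH-7 without IFN (adjusted p = 0.0581, edgeR, leaving 5 of 9 called); residuals of same-numbered libraries correlated between -0.0664 and 0.0843, so the numbers were not taken to pair libraries. RLE size factors moved the median log2 change of all genes with IFN to -0.11.

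Of the values of single genes, 18 changed sign, none of them called in the comparison as reported; the cause was not tested. With libraries left out, IGFBP1 with IFN in sgNeg2 cells ranged from -4.97 to 1.12, and was -0.14 without sgNeg2 replicate 1. IGFBP1 with knockout and IFN was -0.042 without sgNeg2 IFN replicate 2 and 6.04 without replicate 1. Igf1r in Hepa1-6 ranged from -0.63 to 1.28 and took -0.04 and -0.33 without sg1 replicate 1 and sg2 replicate 2. The differences for Igf1r ranged from -0.30 to 1.60 (Hepa1-6 minus Hep53.4) and were -0.42 and -0.12 at the low end (minus LLC). For Igf2, Hepa1-6 minus Hep53.4 ranged from -0.83 to 0.45, was 0.023 and 0.45 without Hep53.4 sgNeg2 replicate 1 and sg1 replicate 2, and was 0.68 with sg2 alone. Igfbp5, Hep53.4 minus LLC, ranged from -0.62 to 0.45. Igf2 in Hepa1-6 was -0.054 with sg1 alone. With sg2 alone, knockout with IFN gave 0.017 for IGF2 and 0.118 for IGFBP7. With DMSO as control, IFN gave -0.51 for IGFBP2 and -0.34 for IGFBP4. The alternatives for knockout with IFN were chosen after seeing the data. IGFBP1 and IGFBP5 in HuH-7 and Igf1r, Igfbp5 and Igfbp7 in Hepa1-6 rest on few counts.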
